A study of Mus musculus with 6 samples.

Results

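The expression of 10 tubulin isotypes was followed in the apex of 6 mouse hearts. The genes are the α-tubulins Tuba1a, Tuba1b, Tuba1c and Tuba8 and the β-tubulins Tubb2a, Tubb2b, Tubb3, Tubb4b, Tubb5 and Tubb6. All probe sets annotated to exactly 1 of these 10 symbols were taken. They numbered 17 of 45101 on the array and covered 8 of the 10 genes, against 18193 genes with a probe set of their own. Tuba1b and Tuba1c had none. Another 5 probe sets are annotated to an isotype together with a second gene and are described separately. The list was chosen by gene symbol but with the differences between hearts with and without Cre already known, so the isotype values below are a description and carry no p-value.

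Every animal was a male aged 6 to 7 weeks with 1 floxed and 1 delta (deleted) allele of Fog2, officially Zfpm2, which encodes a partner protein of the GATA factors. An αMHC-Cre transgene (alpha MHC Cre) was carried by 3 of them, which expresses Cre recombinase from the α-myosin heavy chain promoter in cardiomyocytes. The other 3 hearts carried no Cre, and they too had the deleted allele, so no heart was wild type. Each heart gave 1 Affymetrix array, and the titles call the hearts biological replicates. Since Cre was never present without the floxed allele, an effect of Cre itself cannot be told apart from one of the deletion. The labelled tissue held its defining transcripts, with 10 of 10 cardiomyocyte markers above the filter on dim probe sets, 0 of 10 called in either direction by limma (also 0 at an unadjusted p under 0.05) and a median difference of -0.01.

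Microtubules are hollow polymers of α- and β-tubulin dimers. Mammals make each subunit from several genes, and the isotypes differ mostly in their acidic C-terminal tails, where many modifying enzymes, motors and other microtubule-binding proteins act. In cardiomyocytes microtubules carry cargo, form part of the mechanical load on the shortening cell, and become denser and more detyrosinated in failing hearts. Tubb5, Tubb4b and Tuba1b are broadly expressed isotypes, Tuba8 is found in striated muscle and testis, and Tubb2b, Tubb3 and Tuba1a are best known from developing neurons, with Tubb2a also high in brain.

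Values are log2 signals of a probe set (PLIER, a method that merges the probes of a set), and differences are αMHC-Cre minus no Cre. Signals of different probe sets cannot be compared with each other, so no order of levels between isotypes is given. Medians of the 6 arrays ran from 5.71 to 5.81. The 2 probe sets of Zfpm2 moved in opposite directions, from 6.34 to 6.65 without Cre to 5.46 to 5.66 with Cre for the dimmer and from 8.83 to 8.95 to 10.48 to 10.71 for the brighter. Their positions in the gene are unknown here, and neither checks the deletion. In the limma fit across the 27022 probe sets above the filter, 3.43% were called higher and 1.79% lower with Cre at an adjusted p under 0.05, and without the filter these shares were 0.502% and 0.109% of all probe sets.

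Coding sequences of tubulin isotypes are very similar, and probe set names on this array carry a warning for this. The ending _x_at marks probes that may also match other sequences, and _s_at marks probes shared between several transcripts. Of the 17 isotype probe sets, 5 end in _x_at and 1, the brighter of Tubb2a, in _s_at. Signal may therefore be split or shared between isotypes, and each value below is that of the probe set under its annotated gene.

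Promoter windows from RefSeq (GRCm38.p6, 250 bases before to 50 after the annotated start) were used for 8 of the 10 genes. Tubb2b, with the largest difference among the tested isotype probe sets, and Tubb6 are not among them. The motif counts below therefore do not cover these genes. Those of Tubb2a, which was called higher with Cre, and Tubb4b, a broadly expressed isotype with no called probe set, are shown because they stand for the contrast between the isotypes. Tubb2a lies at chr13:34077959-34078258 and Tubb4b at chr2:25224653-25224952, both on the minus strand, and each is written 5′ to 3′ along its gene. Capitals mark the TATA box letters TATAAA, the CAAT box letters CCAAT, the GC box letters GGGCGG and a GATA motif (AGATAA or its variant TGATAA, and with G as the last letter AGATAG or its variant TGATAG), all searched on both strands.
Tubb2a: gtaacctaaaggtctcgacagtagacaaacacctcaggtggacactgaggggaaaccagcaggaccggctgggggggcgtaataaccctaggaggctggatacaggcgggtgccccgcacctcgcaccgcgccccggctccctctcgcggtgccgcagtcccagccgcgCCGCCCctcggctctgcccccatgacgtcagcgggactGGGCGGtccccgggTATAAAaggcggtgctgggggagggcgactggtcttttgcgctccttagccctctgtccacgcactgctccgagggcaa
Tubb4b: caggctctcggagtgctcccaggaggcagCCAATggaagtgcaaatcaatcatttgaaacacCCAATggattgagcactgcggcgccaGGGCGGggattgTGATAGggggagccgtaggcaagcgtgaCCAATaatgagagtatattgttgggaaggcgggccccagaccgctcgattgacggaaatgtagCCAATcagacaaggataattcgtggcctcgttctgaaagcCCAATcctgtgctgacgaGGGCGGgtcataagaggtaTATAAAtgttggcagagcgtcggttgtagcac
The Tubb2a window holds 1 TATAAA, which begins 29 bases before the start, 2 GGGCGG and 0 CCAAT. The Tubb4b window holds 5 CCAAT and 2 GGGCGG, and its 1 TATAAA begins 18 bases after the annotated start. A GATA motif occurs 1 time each in the windows of Tubb4b and Tuba1b and 2 times in that of Tubb5. It occurs 0 times in those of Tubb2a, Tubb3, Tuba1a, Tuba1c and Tuba8. Of all 32851 promoter windows in the table, 13.6% hold TATAAA, 37.4% hold CCAAT, 35.7% hold GGGCGG and 29.8% hold a GATA motif. A match describes the letters and does not show that a factor binds there. In the RefSeq gene order Tubb2a and Tubb2b lie on chromosome 13 with 1 gene model, 4930447K03Rik, between them.

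The class II β-tubulins Tubb2b and Tubb2a were higher with Cre, with the largest differences among the tested isotype probe sets. The Tubb2b signal was 5.62, 5.28 and 5.61 without Cre, against 7.91, 7.82 and 8.29 with Cre. The groups did not overlap, and the lowest heart with Cre lay well above the highest without it. The difference was 2.51 ± 0.16 (SE, n = 3 per group) on the log2 scale, or 5.69-fold, and it ranged from 2.37 without aMHC_Cre 3 to 2.60 without aMHC_Cre 2. With 16 added to the unlogged signal, which damps changes of low signals, it was 2.16.

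The brighter probe set of Tubb2a read 8.52, 8.34 and 8.68 without Cre against 9.57, 9.44 and 10.48 with Cre. Here too all hearts with Cre lay above all hearts without it, with aMHC_Cre 3 apart from the other two. The difference was 1.32 ± 0.25 (SE), or 2.49-fold, and 0.99 without aMHC_Cre 3. This probe set was not called when no_Cre 2 was left out or when dim probe sets were kept in the fit. The other probe set of Tubb2a fell below the filter, at 4.18, 3.82 and 4.71 without Cre against 5.17, 4.76 and 5.44 with Cre, a difference of 0.89 ± 0.29 in the fit of all probe sets. Its groups did not overlap either, although no_Cre 3 and aMHC_Cre 2 nearly touched.

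Further probe sets for the Tubb2 genes were dim. The one annotated to both Tubb2b and the pseudogene Tubb2a-ps2 read 3.94, 3.87 and 4.33 without Cre against 5.68, 5.89 and 6.42 with Cre, a difference of 1.95. Of 3 probe sets annotated to Tubb2a-ps2 alone, 1 differed by 2.26, 1 by 0.05 and 1 by -3.17, the last with a single heart, aMHC_Cre 3, at -7.09. These sequences resemble those of Tubb2a and Tubb2b, so the pseudogene's own part in the signal was not tested.

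**Figure D1:**
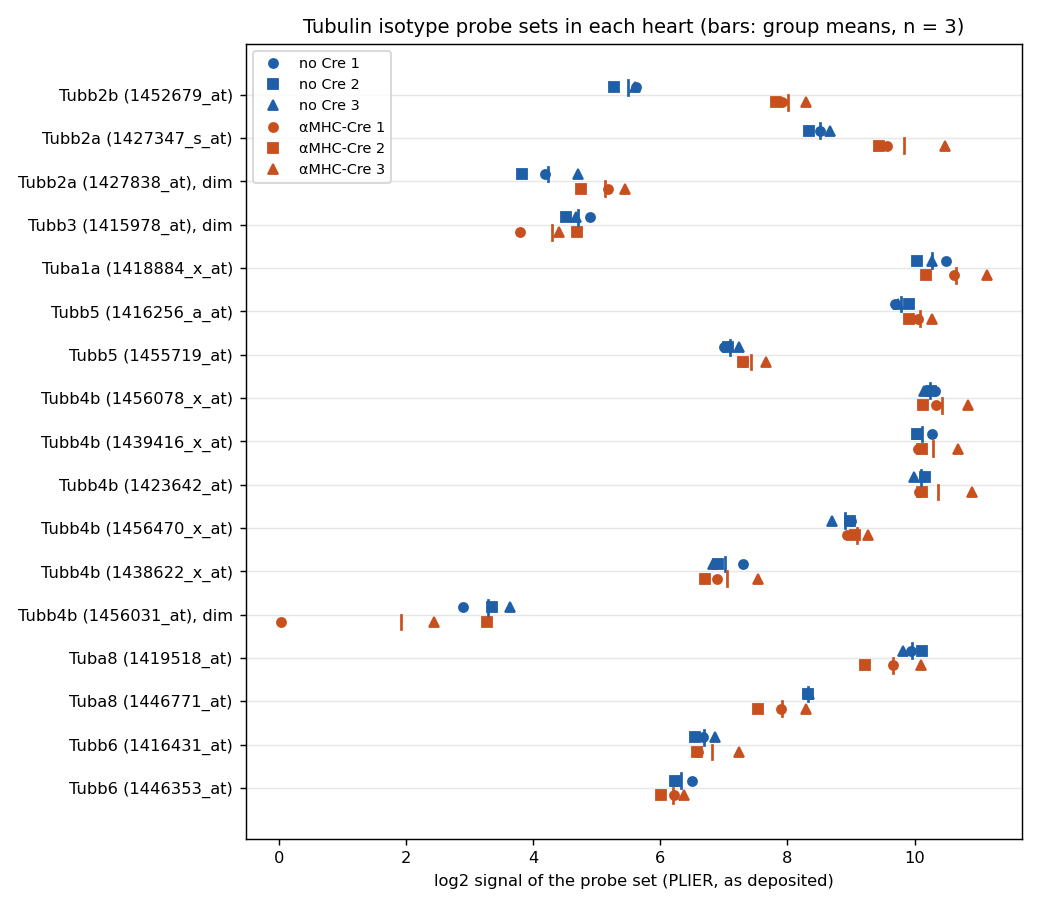
Log2 signal of each of the 17 isotype probe sets (rows, gene and probe set) in the 3 hearts without Cre (blue) and the 3 with αMHC-Cre (orange), with vertical bars at the group means. Tubb2b moves from 5.28 to 5.62 up to 7.82 to 8.29, and in most other rows the colours overlap.

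The 2 other isotypes known from neurons or fetal tissue showed smaller differences, and in opposite directions. Tubb3, the class III β-tubulin used as a neuronal marker, was below the filter at 4.89, 4.53 and 4.68 without Cre against 3.79, 4.69 and 4.41 with Cre. The groups overlapped and the difference, -0.40 ± 0.26 (SE), pointed downward. Tuba1a, the main α-tubulin of young neurons, read 10.49, 10.03 and 10.28 without Cre against 10.62, 10.17 and 11.14 with Cre. Its hearts overlapped, and the difference of 0.38 ± 0.23 fell to 0.13 without aMHC_Cre 3.

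Among the broadly expressed isotypes, Tubb5, the class I β-tubulin, was slightly higher with Cre in both of its probe sets. The brighter read 9.69, 9.91 and 9.74 against 10.05, 9.91 and 10.27 with Cre, and the dimmer 7.00, 7.07 and 7.24 against 7.30, 7.30 and 7.66. Groups did not overlap in either, but the nearest hearts of the brighter one were almost equal. The differences were 0.30 ± 0.13 (SE) and 0.32 ± 0.14, and neither was called.

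Tubb4b, the class IVb β-tubulin, had 6 probe sets, 5 of them tested. The brightest read 10.32, 10.26 and 10.14 without Cre against 10.34, 10.13 and 10.83 with Cre, with aMHC_Cre 3 well above all other hearts and the remaining ones intermixed. The 5 tested probe sets differed by 0.03 to 0.26, with overlapping groups in each. Without aMHC_Cre 3 they differed by -0.21 to 0.09. The sixth, with group means of 3.30 and 1.92, was dim and differed by -1.38 ± 0.86, with 1 heart, aMHC_Cre 1, at 0.035.

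Tuba8, an α-tubulin of striated muscle, was the isotype lower with Cre in both of its tested probe sets. The brighter read 9.95, 10.11 and 9.81 without Cre against 9.66, 9.22 and 10.10 with Cre, and its groups overlapped. The other read 8.31, 8.32 and 8.34 without Cre, a very narrow range, and 7.90, 7.53 and 8.30 with Cre. These groups were separate by a small margin, since aMHC_Cre 3 came close to the hearts without Cre. The differences were -0.29 ± 0.21 (SE) and -0.41 ± 0.18, and -0.52 and -0.61 without aMHC_Cre 3. Neither was called with all hearts.

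Tubb6, the class V β-tubulin, showed no common direction. Its brighter probe set read 6.67, 6.54 and 6.86 without Cre against 6.60, 6.58 and 7.24 with Cre, and differed by 0.12 ± 0.19 (SE). The other differed by -0.12 ± 0.14. Both had overlapping groups, and without aMHC_Cre 3 both differences were negative, at -0.10 and -0.21.

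Probe sets annotated to an isotype and a second gene name neither. The one for Tuba1b and Gm5620 read 11.76, 11.42 and 11.53 without Cre against 11.75, 11.61 and 12.46 with Cre, a difference of 0.37 with overlapping groups. The 2 for Tuba1c and Gm6682 differed by 0.62, with groups separate by a small margin (9.24 against 9.26), and by 0.61, with overlap. Both were highest in aMHC_Cre 3, at 9.92 and 9.47. The dim one for Tuba1a and Gm6682 differed by -0.01.

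Of the 14 tested isotype probe sets, those of Tubb2b and Tubb2a (2) lay past the threshold of the limma fit on the higher side and 0 on the lower, which is given as a description. Across all tested probe sets 3.43% were called higher, but the isotypes were listed with this comparison known, so nothing is read from the share or from the calls. Groups did not overlap in 5 of the 14, against 23.5% of all tested probe sets. The median difference was 0.19 over the 14, beside -0.02 over all tested probe sets.

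**Figure D2:**
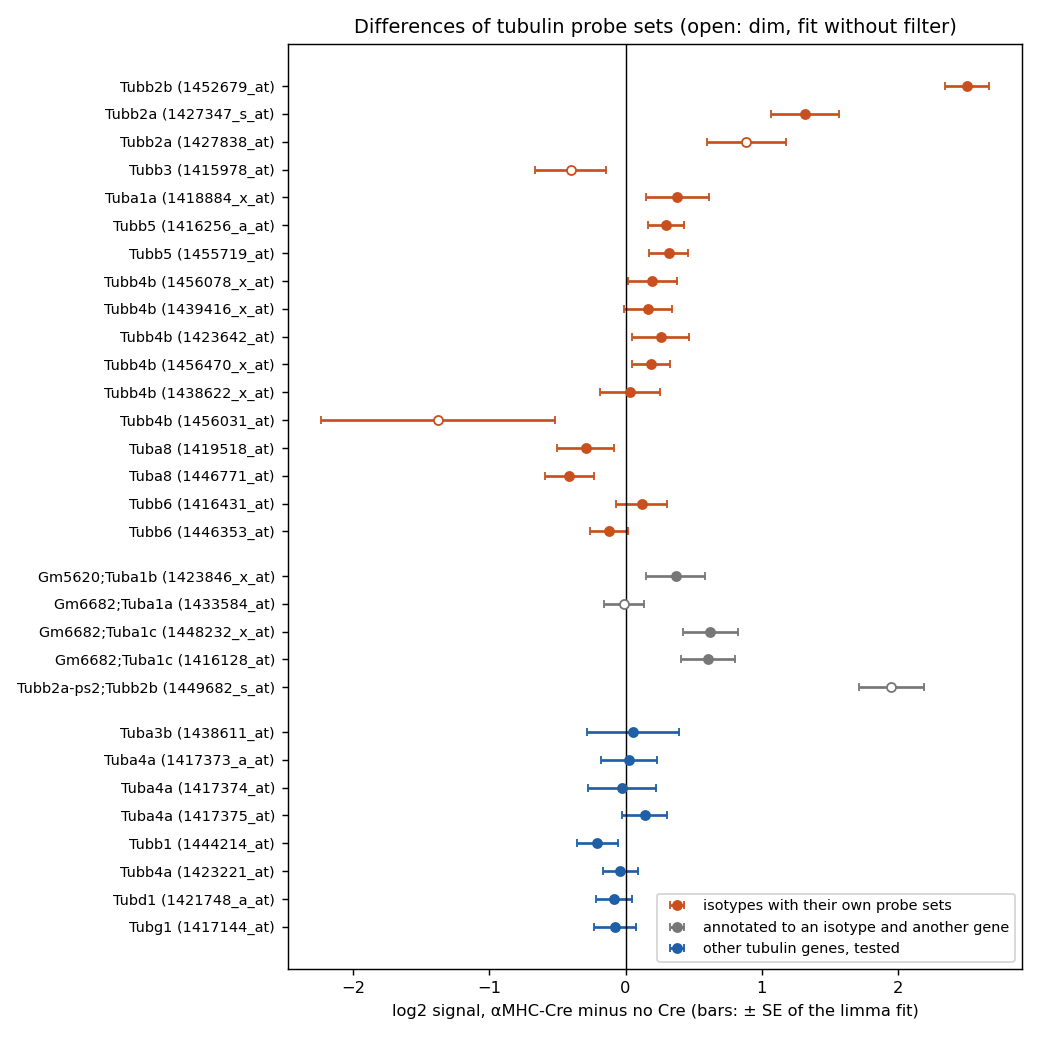
Differences in log2 signal (αMHC-Cre minus no Cre, ± SE of the limma fit, n = 3 hearts per group) for the isotype probe sets, those annotated to an isotype and another gene, and the tested probe sets of other tubulin genes. Tubb2b at 2.51 and Tubb2a at 1.32 lie to the right, and other tested probe sets of single genes lie between -0.41 and 0.38.

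One heart stood above the others of its group in the isotype probe sets. In aMHC_Cre 3 all 14 tested isotype probe sets were the highest of the 3 hearts with Cre, whereas this heart was highest in 34.3% of all tested probe sets. The 14 belong to 7 genes, with 5 probe sets of Tubb4b alone, and may share signal, so they are not separate observations. The excess of aMHC_Cre 3 over the mean of the other hearts with Cre ran from 0.26 to 0.97, with a median of 0.60. Over all tested probe sets the median of this excess was 0.01. Among 8 tested probe sets of single tubulin genes outside the list, this heart was the highest of the 3 in 5, those of Tuba4a (3), Tubb1 and Tubg1, but not in those of Tuba3b, Tubd1 and Tubb4a. Tubb4a was lowest in it, at 7.66 against 7.97 and 7.95. The brightest probe set of Tuba4a read 12.73, 12.45 and 12.43 without Cre against 12.37, 12.26 and 13.07 with Cre. Without aMHC_Cre 3, 6 of the 14 isotype differences were above 0 and 8 below, against 11 above 0 with all hearts. The array measures of this heart lay near those of its group, with an array median of 5.76 (5.76 and 5.78 in the others) and a 3′ minus 5′ signal of 0.25 for Actb (0.26 and 0.29) and -0.06 for Gapdh (-0.04 and -0.07).

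The isotype groups were then set against each other within each heart, with each gene represented by its brightest probe set. The mean of the neuronal or fetal isotypes (Tubb2a, Tubb2b, Tubb3 and Tuba1a) was 7.38, 7.04 and 7.31 without Cre against 7.98, 8.03 and 8.58 with Cre. The mean of the broadly expressed or muscle isotypes (Tubb4b, Tubb5 and Tuba8) was 9.99, 10.09 and 9.90 without Cre against 10.02, 9.76 and 10.40 with Cre. The first group was higher in all hearts with Cre than in any without, and the second overlapped. Within the first group Tubb2b and Tubb2a differed by 2.51 and 1.32, Tuba1a by 0.38 and Tubb3 by -0.40. The rise of its mean is thus that of Tubb2b and Tubb2a and not one common to its genes. The mean of the first group minus that of the second was 0.88 higher with Cre than without, and its SD between hearts was 0.26 without Cre and 0.16 with Cre (n = 3 each). It was 1.33 higher with a 60% filter and 1.36 higher with the mean over tested probe sets, settings in which Tubb3 is left out as too dim. The mean of Tubb2b without Cre, 5.50, lay under the 60% filter's 6.39. Tubb2b thus passed that filter only through the hearts with Cre, and the 1.33 is no support. The level of this contrast has no meaning, since it subtracts different probe sets, and only its change between hearts is read. In aMHC_Cre 3 it was -1.83, between -2.04 and -1.72 in the other hearts with Cre.

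**Figure D3:**
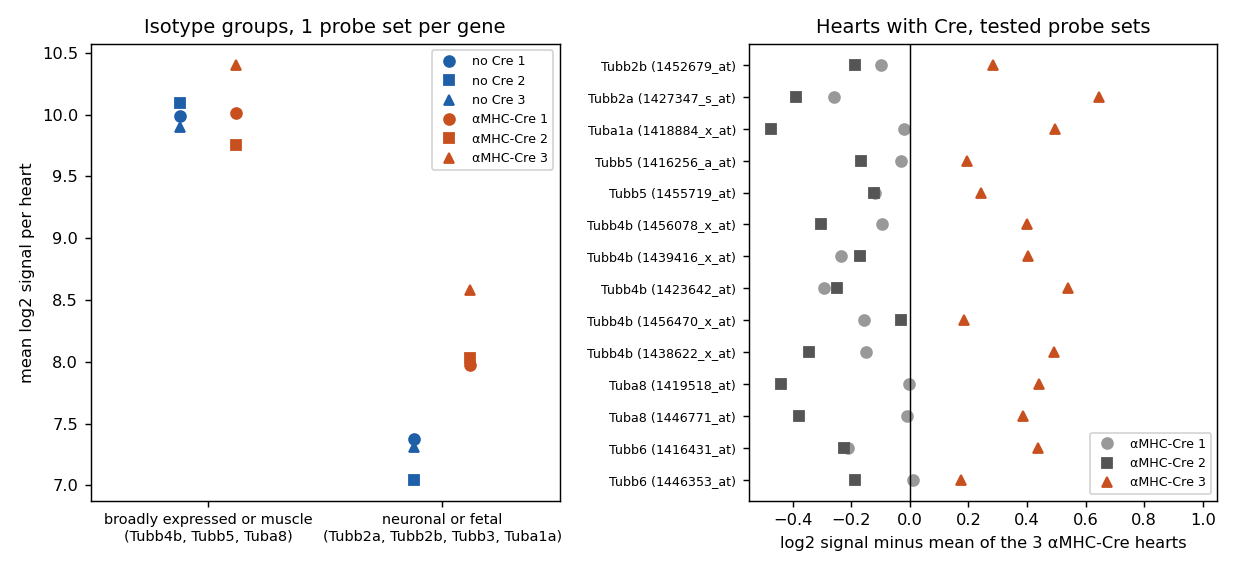
Left, mean log2 signal per heart of both isotype groups, where the neuronal or fetal group lies at 7.04 to 7.38 without Cre against 7.98 to 8.58 with Cre. Right, log2 signal of the 14 tested isotype probe sets in each heart with Cre minus the mean of the 3, with αMHC-Cre 3 to the right in every row.

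The genes whose values ran most like Tubb2b over the 6 hearts were Tmem176b, Tceal9 and Comtd1, each with a Pearson correlation of 0.998. They are the closest of 12328 named genes, and 357 of these (2.9%) correlated above 0.95. With 6 hearts in 2 groups, any gene with a clean group difference scores highly, so this is a description. Tmem176b read 9.27, 9.21 and 9.38 without Cre against 10.19, 10.19 and 10.35 with Cre.

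Genes that build, modify or use microtubules were taken as 6 lists of 140 genes, of which 113 had a tested probe set. In the limma fit 2 rose (1.77%) and 3 fell (2.65%), beside 4.2% and 2.04% of all 13062 genes tested. Most of the machinery thus passed no test in either direction, and the 5 called genes belong to the tubulin-modifying enzymes and the microtubule-associated proteins.

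Of 18 tested enzymes that modify tubulin, 1 rose and 2 fell, with a median difference of -0.03 (-0.01 over all genes). Ttll1, the catalytic subunit of a tubulin polyglutamylase, read 11.49, 11.77 and 11.58 without Cre against 10.84, 10.25 and 10.86 with Cre, and fell by 0.96 ± 0.18 (SE, limma adjusted p 0.016). Agtpbp1, a carboxypeptidase that removes glutamates from tubulin, fell by 0.82 ± 0.14, from 10.06, 9.85 and 10.23 to 9.37, 9.19 and 9.12 (adjusted p 0.0097). In both genes every heart with Cre lay below every heart without it. Hdac6, a deacetylase of α-tubulin, read 7.60, 7.34 and 7.43 without Cre against 8.49, 8.26 and 8.33 with Cre, and rose by 0.90 ± 0.13 (adjusted p 0.0043). Of the other tested probe sets, 1 of Ttll1 differed by -0.97 (adjusted p 0.013) and 1 by -0.15 (0.76), and for Agtpbp1 1 differed by -0.93 (0.013) and 1 by -0.11 (0.86). Ttll1 was not called without no_Cre 2 or with the replicate block (adjusted p 0.062), nor Agtpbp1 without aMHC_Cre 2 (0.055). Without the filter on dim probe sets Hdac6 (0.058), Agtpbp1 (0.097) and Ttll1 (0.15) were not called.

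Of 20 tested microtubule-associated, stathmin and severing genes, 1 rose and 1 fell, with a median of 0.01. Map1a, a structural protein of neuronal microtubules, read 6.10, 6.04 and 6.10 without Cre against 7.19, 7.24 and 7.18 with Cre, and rose by 1.12 ± 0.11 (SE, limma adjusted p 0.00059). Its other tested probe set also differed by 1.12. Map7, which recruits kinesin-1 to microtubules, fell by 0.58 ± 0.12, from 8.70, 8.82 and 8.72 to 8.25, 8.22 and 8.01 (adjusted p 0.025). Its other tested probe set differed by -0.60 (adjusted p 0.055). Map7 was not called in any fit that left out 1 heart (adjusted p 0.053 to 0.093), with the replicate block (0.061) or without the filter (0.12). Map1a was called in all of these.

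The remaining lists had no called gene. Of 6 tested tubulin genes outside the isotype list, 0 were called by limma and 0 reached an unadjusted p under 0.05. Tubb1, the β-tubulin of platelets, differed by -0.21 ± 0.15 (SE) and Tubd1, δ-tubulin, by -0.08 ± 0.13. Of 22 genes that fold tubulin (cofactors, the CCT chaperonin and prefoldin), 0 were called, with 1 higher at an unadjusted p under 0.05 and a median of -0.02. The cofactor gene Tbca differed by 0.31 ± 0.13 and Tbcel by 0.29 ± 0.14. Of 17 end-binding genes 0 were called, with 2 higher at an unadjusted p under 0.05, and Mapre1, the plus-end protein EB1, differed by 0.38 ± 0.12 (adjusted p 0.11). Of 30 kinesin and dynein genes 0 were called, with 5 higher and 1 lower at an unadjusted p under 0.05 and a median of 0.08. The share of all genes at that unadjusted threshold was not counted. Such counts, here and for the markers below, are therefore given as values only. The kinesin light chain gene Klc1 differed by 0.46 ± 0.12 (adjusted p 0.058) and Kif2a, a microtubule depolymerase, by 0.69 ± 0.18 (adjusted p 0.065). Each passed under 4 other settings, with adjusted p of 0.028 to 0.038 for Klc1 and 0.022 to 0.041 for Kif2a. The other tested probe sets of Klc1 differed by 0.29 and 0.39 (limma adjusted p 0.26 and 0.16). Those of Kif2a differed by 0.71, 0.61 and 0.83 (limma adjusted p 0.051, 0.070 and 0.064).

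**Figure D4:**
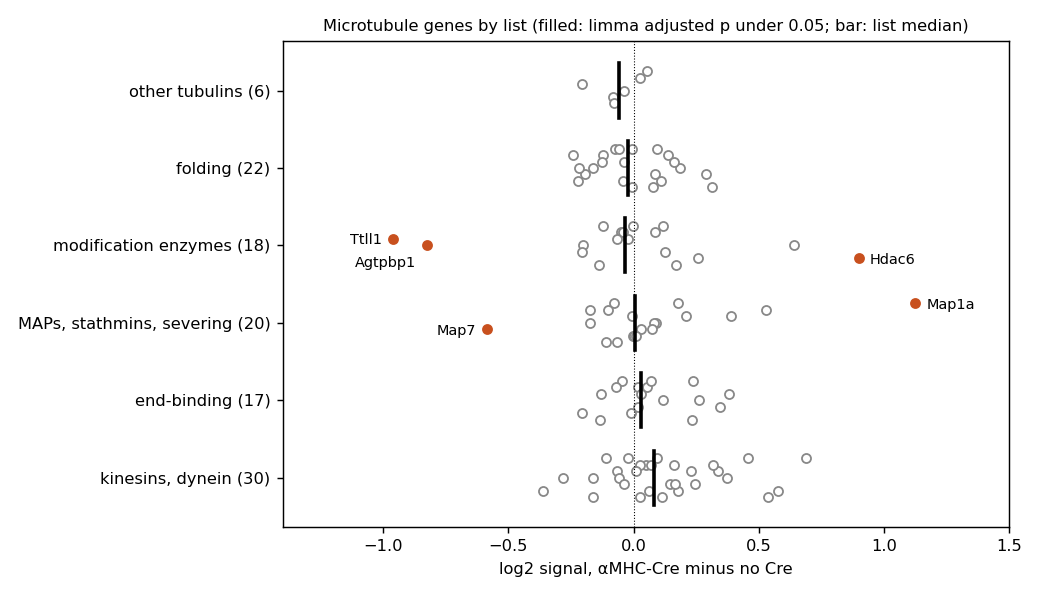
Differences in log2 signal (αMHC-Cre minus no Cre) of the 113 tested genes in 6 lists, 1 point per gene, filled and named where the limma adjusted p is under 0.05, with a bar at each list's median. Map1a at 1.12 and Hdac6 at 0.90 lie to the right, and Ttll1 at -0.96, Agtpbp1 at -0.82 and Map7 at -0.58 to the left.

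Markers of other cell types were read in the same comparison, and not all of them differed. Fewer or more cells of a type and less or more RNA per cell cannot be told apart in these whole-tissue samples. Of 10 fibroblast markers 7 rose and 0 fell in limma (9 and 0 at an unadjusted p under 0.05), with a median of 0.88. The log2 of their summed signal went from 13.70 to 13.90 without Cre to 14.44 to 14.70 with Cre. Dcn, the brightest of them, weighs most in this sum and differed by 0.33 ± 0.13 (SE, limma adjusted p 0.24). None of the 10 fibroblast markers was below the filter on dim probe sets, and 0 was called in the fit without that filter. Of 10 tested neuronal markers 2 were called higher, Nefm and Uchl1, and 1 lower, Chga. Nefm read 4.99, 2.83 and 3.94 without Cre against 9.32, 8.59 and 8.31 with Cre. Its mean without Cre, 3.92, lay under the filter's 5.16, so Nefm passed the filter only through the hearts with Cre and its call is no support. Uchl1 rose by 1.45 ± 0.33 (SE) and Chga fell by 0.63 ± 0.15 (limma adjusted p 0.040 and 0.044). Both calls were lost when any heart other than aMHC_Cre 3 was left out, and all 3 were lost without the filter (adjusted p 0.051 for Nefm). The summed neuronal signal was 9.93 to 10.07 without Cre against 10.45 to 10.70 with Cre. This sum includes Nefm, so its rise is no support either, and a sum without Nefm was not made. Elavl4, Snap25, Gap43, Nefl and Nefh were below the filter, and Th, Dbh, Prph and Stmn2 differed by -0.05 to 0.05. Of 7 Schwann cell markers 0 rose and 1 fell in limma (2 higher and 1 lower at an unadjusted p under 0.05). Their summed signal was 10.15 to 10.33 without Cre against 10.54 to 10.58 with Cre. Most of this sum is the signal of Pmp22, the brightest of them, which differed by 0.44 ± 0.12 (SE, limma adjusted p 0.066). The one that fell was Ngfr, a neurotrophin receptor, by 0.67 ± 0.14 (SE, limma adjusted p 0.027), and it was called in none of the fits without 1 heart except that without aMHC_Cre 2, nor without the filter. Its other tested probe set differed by -0.0048 (adjusted p 0.99), and with the mean over a gene's tested probe sets 1 Schwann cell marker was called higher and 0 lower. Of 8 endothelial markers 1 rose and 0 fell in limma (2 and 0 at an unadjusted p under 0.05). It was Vwf, the von Willebrand factor gene, at 1.12 ± 0.17 (SE, adjusted p 0.0066), not called without the filter. The summed endothelial signal was 12.12 to 12.38 without Cre against 12.45 to 12.49 with Cre. Of 6 tested smooth muscle markers 0 were called by limma (1 higher at an unadjusted p under 0.05), with Acta2 at 0.80 ± 0.30 (adjusted p 0.20), and the summed signals of the groups overlapped (12.91 to 13.27 against 13.15 to 13.34). Of 7 tested macrophage markers 0 were called (also 0 at an unadjusted p under 0.05), and their summed signals overlapped too (11.52 to 11.80 against 11.65 to 11.81). Among proliferation markers 7 of the 9 with a probe set were below the filter, and 0 of the other 2 was called by limma (also 0 at an unadjusted p under 0.05). The part of these cell types in the Tubb2b, Tubb2a and Map1a signals was not tested. In aMHC_Cre 3 the summed fibroblast signal was the highest of the hearts with Cre, at 14.70. The summed neuronal signal, which includes Nefm, was the lowest of them in this heart, at 10.45.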

How the data were processed

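The values the authors deposited are log2 signals, made with PLIER per the submitters' processing notes. Base 2 is inferred from the values. The sources used here give no background correction or normalization. Of 45101 probe sets, 64 controls and the 40% of the rest with the lowest mean over the 6 arrays (under 5.16) were left out, and 27022 were tested in R 4.3.3 with limma 3.58.1 (a linear model with eBayes moderation, two-sided, Benjamini-Hochberg over all tested probe sets, threshold 0.05), with no further normalization or covariates. Dim probe sets have their SE from the fit of all probe sets. Gene names come from the platform annotation (34945 probe sets with 1 symbol, 932 with several, 9160 with none), and a gene outside the isotypes is represented by its brightest probe set. The isotypes and gene lists were chosen with earlier results of these data known. Named genes are all isotype probe sets, up to 4 called genes per list by size of difference, or 2 by lowest p where none was called, and the 3 genes most correlated with the isotype of largest difference. Precision is limited by the number of arrays, 3 per group. The fit was tested on simulated data. Alternatives were quantile normalization, median centring, no filter, a 60% filter, trend and robust variances, 16 added to the unlogged signal, the replicate number as a block, mean over probe sets, other isotype groups and leaving out each heart.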

Additional observations from a re-analysis of the deposited data

How the results depend on the processing

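The isotype values are a description, and calls among them are counts without weight as support. The Tubb2b difference was 2.16 to 2.60 under the alternatives tried. The count of isotype probe sets called higher was 1 without a filter and 1 to 2 when single hearts were left out, and 0 was called lower throughout. The change in the gap between isotype groups was 1.33 with a 60% filter and 1.36 with the mean over tested probe sets. In both settings Tubb3 drops out as too dim. Tubb2b passed the 60% filter only through the hearts with Cre, so the 1.33 is no support. Without single hearts the change in the gap was 0.73 to 0.97. Differences near 0 changed sign without single hearts: the Tubb4b probe sets ranged from -0.0018 to 0.35, -0.036 to 0.28, -0.013 to 0.40 and -0.21 to 0.20, and the brighter one of Tubb6 from -0.10 to 0.23. Without a filter 0 modification genes were higher and 0 lower, and 0 microtubule-associated genes were lower. Without single hearts these counts were 1 to 2, 1 to 2 and 0 to 0. The extra modification gene called higher appeared without aMHC_Cre 3. The count of end-binding genes called higher was 1 with quantile normalization and 1 with trend and robust variances. That of kinesin and dynein genes was 1 with quantile normalization, 2 with a 60% filter, 2 with trend and robust variances, 2 with 16 added, 1 with the mean over probe sets and 0 to 2 without single hearts, with 2 without no_Cre 2. Other filters change both the number of probe sets tested and the set from which eBayes moderates the variances. Why the counts changed was not tested. Deviations of same-numbered hearts of both groups correlated weakly, at -0.06, 0.21 and -0.19, beside -0.20 to 0.27 for other numbers. With 3 hearts per group this cannot tell whether the numbers pair them. With the replicate block, 1 modification gene was lower and 0 microtubule-associated genes were lower.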
